A study of Saccharomyces cerevisiae with 9 samples.

Results

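The genes described here are TIS11, its paralog CTH1 and 8 iron acquisition genes (FET3, FTR1, ARN1, ARN2, SIT1, FIT1, FIT2 and FIT3), 10 of the 6952 entries of the transcript table. The 10 genes were chosen by the footprint counts of TIS11, which had far lower values in pab1Δpbp1Δ cells than in pbp1Δ cells and differed strongly between pbp1Δ isolates, and the other 9 genes were added as members of the iron regulon. The values of TIS11 are therefore given as a description, with no test, and so are those of all 10 genes in pab1Δpbp1Δ against pbp1Δ. Ribosome profiling counts the pieces of mRNA that are shielded by ribosomes during nuclease digestion (footprints), and a count depends on both mRNA abundance and ribosome density. The libraries came from 3 groups of Saccharomyces cerevisiae W303 cells grown in rich glucose medium, with 3 libraries in each. In pab1Δpbp1Δ cells, PBP1 was replaced by URA3 and PAB1, which encodes the cytoplasmic poly(A)-binding protein, by kanMX. In pbp1Δ cells, PBP1, which encodes a protein that binds Pab1, was replaced by URA3 and PAB1 was intact. WT cells were the isogenic strain with both genes. Loss of PBP1 allows cells to live without PAB1, and pab1Δpbp1Δ cells grew more slowly than those of the other strains. Per the methods of the study, the pab1Δpbp1Δ isolates all derived from a single pbp1Δ strain, each pbp1Δ library was made from an isolate of its own, and 1 WT strain gave all WT libraries as technical replicates. Elsewhere the study speaks of biological replicates for every strain, so what separates the WT libraries is not settled. The spread among WT libraries may therefore be technical, and the tests against WT treat it as a spread between isolates.

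Yeast cells short of iron switch on a set of uptake genes through the transcription factors Aft1 and Aft2. The products include a cell surface oxidase and permease that take up free iron, transporters of iron-binding siderophores, and mannoproteins of the cell wall that help to retain siderophore-bound iron. Aft1 and Aft2 also switch on TIS11 (also named CTH2), whose zinc-finger protein binds AU-rich elements in mRNAs of iron-consuming proteins and promotes their decay, and Cth1 acts in the same way on an overlapping set of mRNAs.

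Libraries held between 3149040 and 6903587 expected counts, the least in pab1Δpbp1Δ replicate 3. Levels below are normalized counts, which are expected counts divided by a size factor of each library. The deleted genes were as labelled, with PAB1 at 0, 3.00 and 0 normalized counts in pab1Δpbp1Δ libraries against 5143 to 5644 in WT libraries, and PBP1 at 0 in all pab1Δpbp1Δ libraries, at 0, 2.97 and 0 in pbp1Δ libraries, and at 778 to 813 in WT libraries. All 10 iron genes had an adjusted p-value in all 3 comparisons, and 6 of them (TIS11, CTH1, FET3, FTR1, SIT1 and FIT2) averaged at least 50 normalized counts over the 9 libraries. Genes of a family (ARN1, ARN2, SIT1 and ENB1, FET3 and FET5, FTR1 and FTH1, TIS11 and CTH1) may share reads that were divided between them by estimate, which makes the values of the less abundant members uncertain.

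TIS11 lies on chromosome XII at 415801 to 416658 of the R64 assembly. It had 239.8, 27.8 and 36.8 normalized counts in pab1Δpbp1Δ replicates 1, 2 and 3. It had 764.5, 1176 and 7387 in pbp1Δ replicates 1, 2 and 3, and 2457, 1345 and 4733 in WT replicates 1, 2 and 3. Every pab1Δpbp1Δ library lay below every library of the other strains, whereas pbp1Δ and WT libraries overlapped. The mean was 101.5 ± 119.9 in pab1Δpbp1Δ cells, 3109 ± 3711 in pbp1Δ cells and 2845 ± 1727 in WT cells (SD, n = 3 each). The mean in pab1Δpbp1Δ cells was thus 30.6-fold lower than in pbp1Δ cells and 28.0-fold lower than in WT cells, and the fitted log2 fold changes were -4.94 ± 1.27 and -4.81 ± 1.03 (SE). Leaving out pbp1Δ replicate 3 gave a log2 fold change of -3.27 against pbp1Δ cells. Leaving out pab1Δpbp1Δ replicate 1 gave -6.59 against pbp1Δ cells and -6.47 against WT cells. The 2 lowest levels rested on 37.9 and 22.7 expected counts, in pab1Δpbp1Δ replicates 2 and 3. For pbp1Δ against WT cells, the log2 fold change was 0.13 ± 1.03, and without pbp1Δ replicate 3 it was -1.55.

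**Figure D1:**
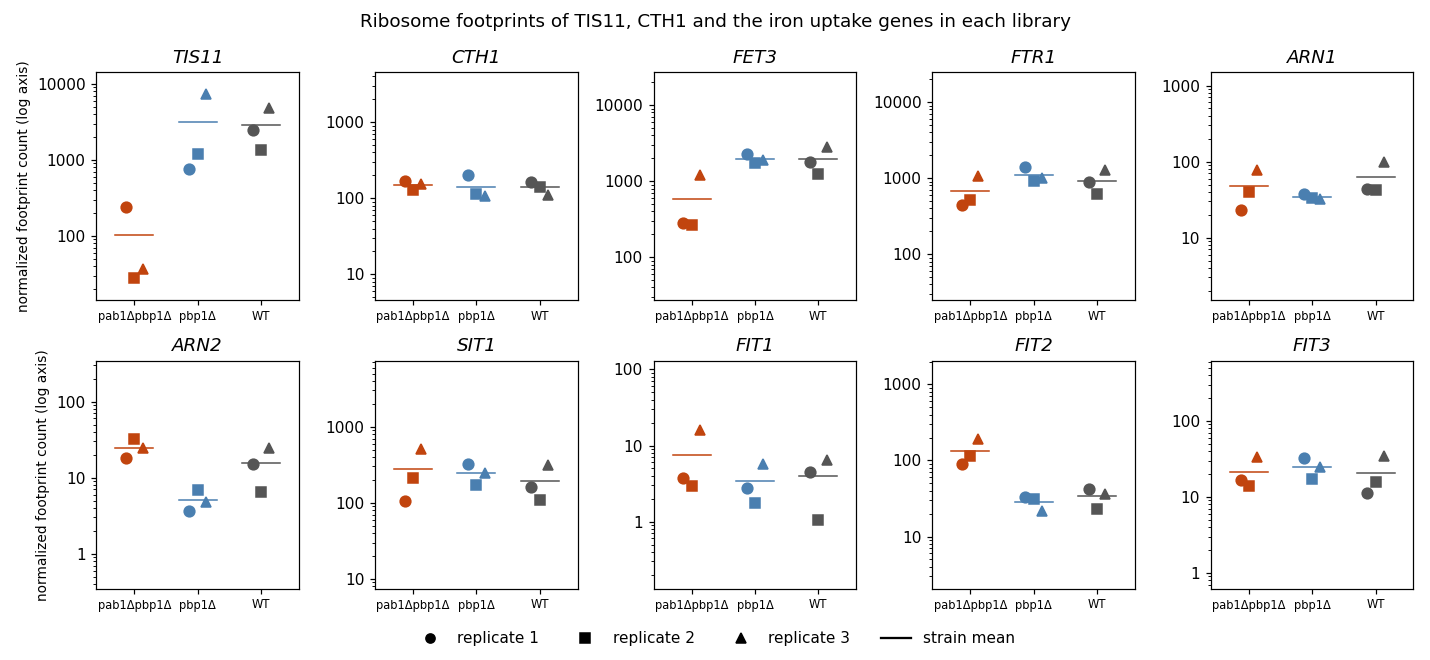
Normalized ribosome footprint counts (log axis, each panel spanning the same number of decades) of the 10 genes in pab1Δpbp1Δ, pbp1Δ and WT libraries, with marker shapes for replicate numbers and lines for strain means. TIS11 lies between 27.8 and 239.8 in pab1Δpbp1Δ cells and at 764.5 or above elsewhere, while FIT2 is at 90.8 or above in pab1Δpbp1Δ cells and at 41.6 or below elsewhere.

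TIS11 also varied more between libraries of the same strain than nearly all other entries. Its highest level was 8.62 times its lowest in pab1Δpbp1Δ cells, 9.66 times in pbp1Δ cells and 3.52 times in WT cells. The SD of its log2 level was 1.67 in pab1Δpbp1Δ, 1.74 in pbp1Δ and 0.91 in WT cells, against a median of 0.23, 0.18 and 0.14 over 4550 entries with a mean of at least 50 normalized counts. Of these entries, 6, 5 and 10 had a larger SD in pab1Δpbp1Δ, pbp1Δ and WT cells. TIS11 was chosen in part for its spread among pbp1Δ libraries, so its place in pbp1Δ cells only describes that choice. Replicate 3 was the library with the most TIS11 footprints in both pbp1Δ and WT cells, and replicate 1 was the one in pab1Δpbp1Δ cells. Libraries were sequenced in sets of 3, and which libraries formed a set is not given in the sources used here, so a part of sequencing runs in this spread was not tested.

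The share of TIS11 among the counts of the 10 genes varied with it. It was 17.2% (15.4 to 19.2), 2.06% (1.51 to 2.83) and 1.1% (0.746 to 1.67) in pab1Δpbp1Δ replicates 1, 2 and 3, with 95% Wilson intervals that cover counting error only. It was 15.0% (14.1 to 15.9), 28.1% (26.9 to 29.3) and 68.9% (68.1 to 69.8) in pbp1Δ replicates 1, 2 and 3, and 44.1% (42.7 to 45.5), 38.1% (36.4 to 39.7) and 49.9% (48.9 to 51.0) in WT replicates 1, 2 and 3. TIS11 therefore held most of the counts of the 10 genes in a single library, pbp1Δ replicate 3. Together the 10 genes took between 0.0266% (0.0254 to 0.0279) and 0.0654% (0.0626 to 0.0683) of a library in pab1Δpbp1Δ cells, between 0.0763% (0.0742 to 0.0784) and 0.197% (0.194 to 0.201) in pbp1Δ cells, and between 0.0653% (0.0632 to 0.0676) and 0.167% (0.163 to 0.170) in WT cells.

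CTH1, the paralog of TIS11, lies on chromosome IV and spread less between libraries. It had 170.2, 128.7 and 155.2 normalized counts in pab1Δpbp1Δ libraries, 199.8, 114.0 and 105.6 in pbp1Δ libraries, and 163.9, 142.8 and 112.0 in WT libraries. The 3 strains overlapped, and the highest level over the lowest was 1.32, 1.89 and 1.46 in pab1Δpbp1Δ, pbp1Δ and WT cells. The SD of its log2 level was 0.20, 0.50 and 0.28 in these strains, above the median of all entries in pbp1Δ and WT cells, and 165 of the 4550 entries had a larger SD in pbp1Δ cells. The log2 fold change was 0.11 ± 0.25 in pab1Δpbp1Δ against WT cells (SE; DESeq2, adjusted p = 0.776) and -0.00086 ± 0.30 in pbp1Δ against WT cells (adjusted p = 0.999).

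FET3 encodes the multicopper ferroxidase that works with the permease Ftr1 in high-affinity uptake of free iron. FET3 had 282.2, 261.7 and 1198 normalized counts in pab1Δpbp1Δ replicates 1, 2 and 3, against 2304, 1721 and 1886 in pbp1Δ libraries and 1781, 1224 and 2852 in WT libraries. All pab1Δpbp1Δ libraries lay below all others, but replicate 3, the library with the fewest expected counts, was only just below the lowest WT library. The log2 fold change was -1.78 ± 0.72 against pbp1Δ cells and -1.76 ± 0.78 against WT cells (SE). The difference from WT cells did not pass the threshold of 0.01 (DESeq2, adjusted p = 0.0587), with adjusted p between 3.69e-18 and 0.258 over 16 other settings. Without pab1Δpbp1Δ replicate 3, the log2 fold change against WT cells was -2.85 with adjusted p = 3.69e-18. Without pab1Δpbp1Δ replicate 1 or 2 it was -1.433 and -1.405, with adjusted p = 0.163 and 0.164.

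FTR1, which encodes the permease, had 440.9, 514.2 and 1079 normalized counts in pab1Δpbp1Δ replicates 1, 2 and 3. It had 1408, 914.7 and 1007 in pbp1Δ libraries and 893.5, 625.0 and 1267 in WT libraries. As for FET3, replicates 1 and 2 of pab1Δpbp1Δ lay below all other libraries and replicate 3 was higher, here overlapping both other strains. The log2 fold change was -0.73 ± 0.32 against pbp1Δ cells and -0.46 ± 0.32 against WT cells (SE; DESeq2, adjusted p = 0.254 against WT). Without pab1Δpbp1Δ replicate 3 it was -0.96 against WT cells with adjusted p = 0.00305, the lowest over 16 other settings, and the highest was 0.767. In pbp1Δ against WT cells, the log2 fold changes were 0.01 ± 0.26 for FET3 (adjusted p = 0.994) and 0.26 ± 0.25 for FTR1 (adjusted p = 0.780).

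SIT1, ARN1 and ARN2 encode siderophore transporters of the ARN family, and none of them passed the test against WT cells. SIT1 (also named ARN3), which takes up ferrioxamine B, had 106.4, 213.2 and 514.3 normalized counts in pab1Δpbp1Δ libraries, 321.8, 171.0 and 242.7 in pbp1Δ libraries, and 160.4, 107.9 and 318.4 in WT libraries. The 3 strains overlapped, and its log2 fold change against WT cells was 0.50 ± 0.76 in pab1Δpbp1Δ cells (SE; DESeq2, adjusted p = 0.645) and 0.32 ± 0.37 in pbp1Δ cells (adjusted p = 0.822).

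ARN1, which takes up ferrichromes, had 22.9, 39.7 and 78.8 normalized counts in pab1Δpbp1Δ libraries, 37.0, 33.3 and 32.3 in pbp1Δ libraries, and 44.2, 42.2 and 100.1 in WT libraries. All pbp1Δ libraries lay below all WT libraries, with a log2 fold change of -0.88 ± 0.41 that did not pass the test (SE; DESeq2, unadjusted p = 0.0346, adjusted p = 0.335). In pab1Δpbp1Δ against WT cells it was -0.43 ± 0.51 (adjusted p = 0.538).

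ARN2 (also named TAF1), which takes up triacetylfusarinine C, was at a low level with 18.0, 32.4 and 24.3 normalized counts in pab1Δpbp1Δ libraries, 3.7, 6.9 and 4.8 in pbp1Δ libraries, and 15.2, 6.4 and 24.8 in WT libraries. All pab1Δpbp1Δ libraries lay above all pbp1Δ libraries, with a log2 fold change of 2.31 ± 0.68 (SE), and overlapped WT libraries. Against WT cells, the log2 fold change was 0.67 ± 0.63 in pab1Δpbp1Δ cells (DESeq2, adjusted p = 0.423) and -1.65 ± 0.77 in pbp1Δ cells (unadjusted p = 0.0318, adjusted p = 0.324).

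FIT2 encodes a cell wall mannoprotein that aids the retention of siderophore-bound iron, and it was the only one of the 10 genes with more footprints in every pab1Δpbp1Δ library than in any WT library. FIT2 had 90.8, 115.5 and 192.4 normalized counts in pab1Δpbp1Δ libraries, 33.1, 31.0 and 21.9 in pbp1Δ libraries, and 41.6, 23.1 and 36.7 in WT libraries. The means were 132.9 in pab1Δpbp1Δ cells, 28.7 in pbp1Δ cells and 33.8 in WT cells, 4.63-fold higher than in pbp1Δ cells and 3.93-fold higher than in WT cells. Against WT cells it rose by 1.96 ± 0.38 on the log2 scale (SE; DESeq2, adjusted p = 2.84e-06, and between 1.91e-07 and 0.0106 over 16 other settings), and against pbp1Δ cells the log2 fold change was 2.18 ± 0.38. In pbp1Δ against WT cells it was -0.23 ± 0.41 (adjusted p = 0.918).

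FIT1 and FIT3 encode mannoproteins of the same group, and FIT3 neighbours FIT2 on chromosome XV, with FIT2 at 1059531 to 1059992 and FIT3 at 1060441 to 1061055 of the R64 assembly. FIT3 had 16.6, 14.0 and 34.0 normalized counts in pab1Δpbp1Δ libraries, 32.3, 17.4 and 24.7 in pbp1Δ libraries, and 11.1, 15.9 and 34.5 in WT libraries. Unlike FIT2, it overlapped between all strains, and its log2 fold change against WT cells was 0.03 ± 0.64 in pab1Δpbp1Δ cells (SE; DESeq2, adjusted p = 0.979) and 0.27 ± 0.55 in pbp1Δ cells (adjusted p = 0.931). FIT1 lay between 2.9 and 16.2 normalized counts in pab1Δpbp1Δ libraries, between 1.7 and 5.7 in pbp1Δ libraries and between 1.1 and 6.5 in WT libraries. A difference in FIT1 was not detectable at this depth, with log2 fold changes against WT cells of 0.86 ± 1.14 in pab1Δpbp1Δ cells (adjusted p = 0.590) and -0.28 ± 1.15 in pbp1Δ cells (adjusted p = 0.967).

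Over the 10 genes, the differences ran in both directions. In pab1Δpbp1Δ against pbp1Δ cells, the libraries did not overlap for 4 of 10 genes, with ARN2 and FIT2 higher and TIS11 and FET3 lower, against 46.0% of all tested entries. This count describes the comparison from which TIS11 was chosen.

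In pab1Δpbp1Δ against WT cells, 1 of the 9 genes other than TIS11 passed an adjusted p below 0.01 in DESeq2, against 30.9% of all tested entries. This gene was FIT2, which was higher, as were 15.7% of all entries. For 3 of 10 genes (TIS11, FET3 and FIT2) no pab1Δpbp1Δ library overlapped the WT libraries, against 55.1% of all entries. The number of called genes was therefore not above the background. Without pab1Δpbp1Δ replicate 3, FET3 and FTR1 passed as well, and 3 of the 9 genes were called, where 1606 of all entries were called in place of 1818. Neither FET3 nor FTR1 passed without pab1Δpbp1Δ replicate 1 or 2.

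In pbp1Δ against WT cells, 0 of the 9 genes passed, against 1.21% of all tested entries (0.337% higher and 0.869% lower). ARN1 and ARN2 had an unadjusted p below 0.05 in DESeq2, 1 of 8 tested genes had one in edgeR, and edgeR and limma called 0 genes. The libraries did not overlap for ARN1 alone, against 23.3% of all entries. The median log2 fold change of the 10 genes was 0.13, 0.07 and 0.00 in the comparisons of pab1Δpbp1Δ with pbp1Δ, pab1Δpbp1Δ with WT and pbp1Δ with WT cells, against 0.03, 0.05 and 0.00 over all tested entries. The first and second of these comparisons share the pab1Δpbp1Δ libraries, and each pair of comparisons shares a strain.

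**Figure D2:**
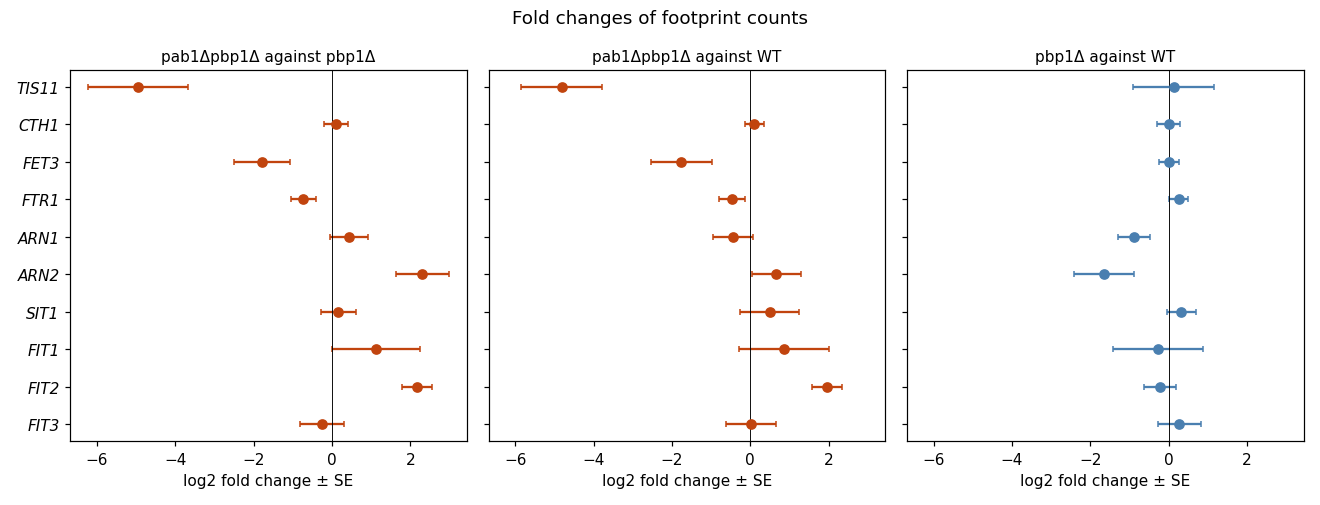
Fitted log2 fold changes (DESeq2) of the 10 genes, with bars for 1 SE, in pab1Δpbp1Δ against pbp1Δ cells, pab1Δpbp1Δ against WT cells and pbp1Δ against WT cells. TIS11 lies near -4.94 and -4.81 and FIT2 near 2.18 and 1.96 in the comparisons of pab1Δpbp1Δ cells, and the SE of TIS11 is 1.03 or more throughout.

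Levels of different genes were compared as FPKM, which scales for transcript length. In pab1Δpbp1Δ cells the order of mean FPKM was FTR1 at 98.3 ± 50.4, FET3 at 55.1 ± 50.6, FIT2 at 44.3 ± 17.5, SIT1 at 27.4 ± 20.8, CTH1 at 24.6 ± 3.37 and TIS11 at 18.3 ± 21.6 (SD, n = 3), followed by FIT3, ARN1, ARN2 and FIT1 at 5.03 to 0.823. No 2 neighbours in this order differed beyond the spread of their libraries. In pbp1Δ cells TIS11 stood first at 525 ± 629 FPKM, FET3 followed at 174 ± 27.0 and FTR1 at 150 ± 35.6, and SIT1 came next at 22.6 ± 6.99. The step between FTR1 and SIT1 exceeded the spread of libraries, as did those between CTH1 (21.2 ± 7.90) and FIT2 (8.91 ± 1.81), between FIT3 (5.41 ± 1.63) and ARN1 (2.96 ± 0.22), and between ARN1 and ARN2 (0.447 ± 0.142), and FIT1 was last at 0.343 ± 0.212. In WT cells TIS11 again stood first at 472 ± 272 FPKM, with FET3 at 171 ± 66.9 and FTR1 at 125 ± 39.6. Clear steps in WT cells lay between FTR1 and CTH1 (21.2 ± 4.59) and between FIT3 (4.40 ± 2.49) and ARN2 (1.34 ± 0.76). TIS11 thus ranked above CTH1 in every pbp1Δ and WT library, whereas in pab1Δpbp1Δ cells its 5.04 to 43.3 FPKM overlapped the 21.0 to 27.7 FPKM of CTH1.

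The library with most TIS11 footprints was not always the one with most footprints of uptake genes. In pbp1Δ replicate 3, TIS11 lay 1.97 above its strain mean on the log2 scale, while FET3 lay at -0.05, FTR1 at -0.12, ARN1 at -0.08, ARN2 at -0.05, SIT1 at 0.03, FIT3 at 0.04 and FIT2 at -0.35, and FIT1, at 0.71, was the uptake gene that was high with it. In pbp1Δ replicate 1, TIS11 lay at -1.30, ARN2 at -0.36 and FIT1 at -0.13, while SIT1 lay 0.44, FIT3 0.41, FTR1 0.37, FET3 0.24, FIT2 0.22 and ARN1 0.11 above the strain mean. In pab1Δpbp1Δ replicate 3, FET3 lay 1.42, FTR1 0.79, ARN1 0.90, SIT1 1.18, FIT1 1.33, FIT2 0.60 and FIT3 0.74 above the strain mean, while TIS11 lay at -0.76. TIS11 was instead 1.91 above the mean in pab1Δpbp1Δ replicate 1, where FET3 lay at -0.66 and SIT1 at -1.09. In WT replicate 3, TIS11 and the uptake genes were high together, with TIS11 0.92, FET3 0.63, FTR1 0.51, ARN1 0.80, ARN2 0.82, SIT1 0.85, FIT1 0.78 and FIT3 0.87 above the strain mean. Most uptake genes were thus high in the same library of a strain, which was replicate 3 in pab1Δpbp1Δ and WT cells and replicate 1 in pbp1Δ cells. Exceptions were ARN2 at 0.00 in pab1Δpbp1Δ replicate 3, ARN2 and FIT1 in pbp1Δ replicate 1, and FIT2 at 0.15 in WT replicate 3. TIS11 was high with them in WT replicate 3, and it was low in pab1Δpbp1Δ replicate 3 and pbp1Δ replicate 1, a difference that was not tested.

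**Figure D3:**
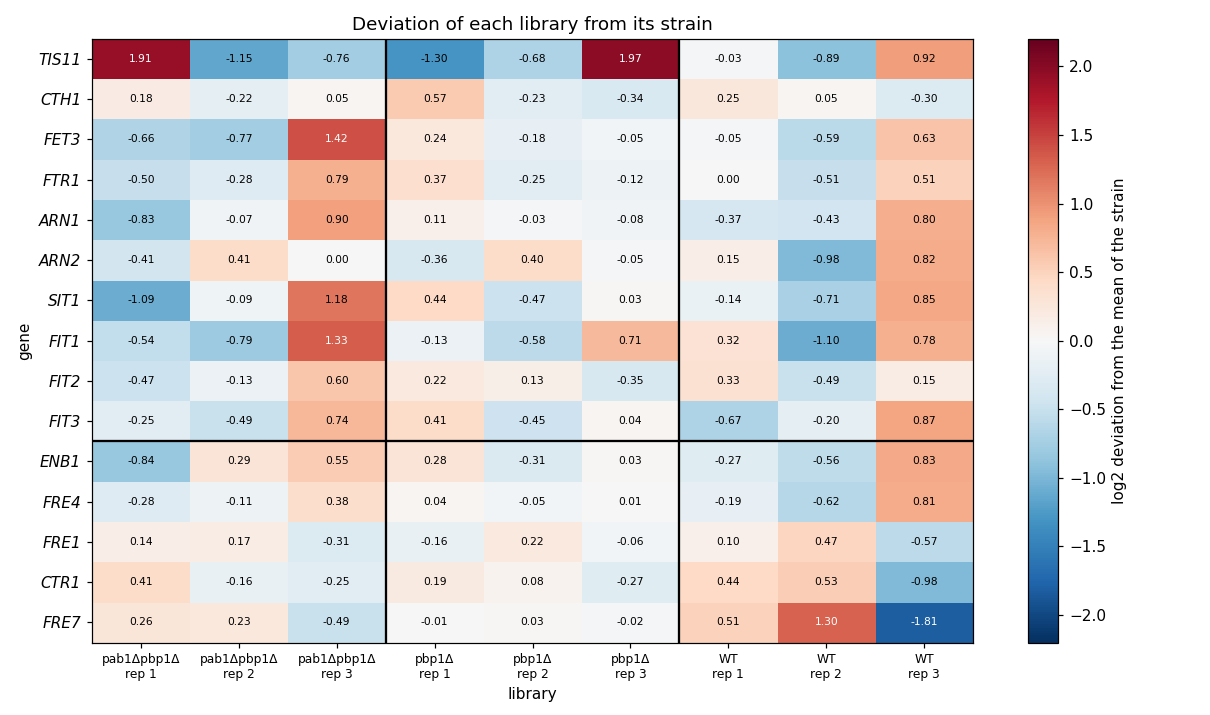
Deviation of the log2 normalized count of each gene (rows) in each library (columns) from the mean of its strain, with the 10 iron genes above the line and 5 other iron and copper genes below it. TIS11 is 1.97 above its strain mean in pbp1Δ replicate 3 while FET3 is at -0.05, and in WT replicate 3 CTR1 is at -0.98 while FET3 is at 0.63.

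Correlations over the 9 libraries describe the same pattern. Pearson's r of log2(normalized count + 1) with TIS11 was 0.72 for FET3, 0.43 for FTR1, -0.20 for SIT1, -0.35 for CTH1 and -0.89 for FIT2, over libraries that share strain differences and depth. After the strain means were subtracted, r was -0.09 for FET3, -0.18 for FTR1, -0.22 for SIT1, -0.33 for CTH1 and -0.44 for FIT2. None of the 5 genes was therefore close to TIS11 within strains. The entries most like TIS11 over the 9 libraries, of 4549 compared, were RSC8 with r = 0.98, KTR1 and LAG1 with 0.97 each, NPP1 and PMT6 with 0.97, and GPM3, MRT4, PNO1, RPL12B and RPL3 with 0.96. Within strains they were NPP1 and NAT2 with 0.97, LSB5 with 0.96, RDS3 and DAM1 with 0.94, RSC8 with 0.93, YPR196W and GEP7 with 0.91, and TES1 and FMP41 with 0.90. RSC8 (a subunit of a chromatin remodelling complex) and NPP1 (a nucleotide pyrophosphatase) were in both groups. Of the other iron uptake genes, the low-affinity iron transporter FET4 with 0.74, the vacuolar iron transporter SMF3 with 0.72 and the vacuolar permease FTH1 with 0.66 were the nearest to TIS11 within strains. They stood at places 112, 147 and 231 of the 4549 entries.

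A list of 17 other genes of iron uptake and handling was read in the same fits. In pab1Δpbp1Δ against pbp1Δ cells, 1 of 15 tested genes rose and 3 fell, while 11.1% of all tested entries rose and 10.2% fell (21.3% in all), and the list median was -0.38 against 0.03 over all entries. In pab1Δpbp1Δ against WT cells, 1 rose and 5 fell of 15, while 15.7% of all tested entries rose and 15.3% fell, with a median of -0.40 against 0.05. The reductase genes FRE4 and FRE1 had the largest changes among the called genes of the list.

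FRE4, a reductase of siderophore-bound iron, had 14.0, 15.8 and 22.6 normalized counts in pab1Δpbp1Δ libraries, against 137.4, 129.0 and 135.2 in pbp1Δ libraries and 177.5, 131.2 and 355.7 in WT libraries. It fell by 2.99 on the log2 scale against pbp1Δ cells (SE 0.34; DESeq2, adjusted p = 3.99e-16) and by 3.70 against WT cells (SE 0.42; adjusted p = 1.05e-16). FRE1, the main ferric and cupric reductase of the cell surface, had 251.6, 256.3 and 183.9 in pab1Δpbp1Δ libraries, against 1016, 1325 and 1092 in pbp1Δ libraries and 930.2, 1198 and 581.7 in WT libraries. It fell by 2.31 against pbp1Δ cells (SE 0.20; adjusted p = 1.22e-28) and by 1.97 against WT cells (SE 0.26; adjusted p = 8.97e-13). For both reductases, no pab1Δpbp1Δ library reached the level of any other library. The other FRE genes of the list did not pass. FRE3, at most 11.2 normalized counts in any library, had log2 fold changes of 2.45 ± 1.42 and 2.54 ± 1.48 against pbp1Δ and WT cells (adjusted p = 0.190 and 0.164), with every pab1Δpbp1Δ library above all others. FRE6 was at -0.20 ± 0.29 and -0.19 ± 0.32 (adjusted p = 0.663 and 0.673), and FRE2 and FRE5, at 2.94 or fewer normalized counts, received no adjusted p.

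HMX1, which encodes a heme oxygenase that releases iron from heme, was the gene of the list that rose. It had 334.9, 441.3 and 513.9 normalized counts in pab1Δpbp1Δ libraries, 133.7, 154.5 and 170.6 in pbp1Δ libraries and 235.2, 223.4 and 288.7 in WT libraries. The log2 fold change was 1.48 ± 0.23 against pbp1Δ cells (SE; DESeq2, adjusted p = 3.77e-09) and 0.78 ± 0.22 against WT cells (adjusted p = 0.00148), where the call was lost without WT replicate 1 or 2 or without pab1Δpbp1Δ replicate 2 or 3. COT1, a vacuolar metal transporter, fell against pbp1Δ and WT cells, with log2 fold changes of -0.71 and -0.89 (adjusted p = 0.00385 and 3.99e-05), and its call against pbp1Δ cells was lost without any 1 pbp1Δ library or without pab1Δpbp1Δ replicate 2 or 3. Against WT cells, the enterobactin transporter ENB1 fell by 1.62 (adjusted p = 0.000397) and FTH1 by 0.63 (adjusted p = 0.00517), which lost its call without any 1 WT library or without pab1Δpbp1Δ replicate 2 or 3. ENB1 lost its call without WT replicate 3, where it had 383.5 normalized counts against 178.7 and 145.4 in WT replicates 1 and 2, while its pab1Δpbp1Δ libraries had 39.4, 87.7 and 105.1. In all limma settings, COT1 lost its call against pbp1Δ cells, as did ENB1 and FTH1 against WT cells. FTH1 also lost its call in edgeR, and HMX1 lost its call against WT cells in limma without a minimum mean FPKM.

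**Figure D4:**
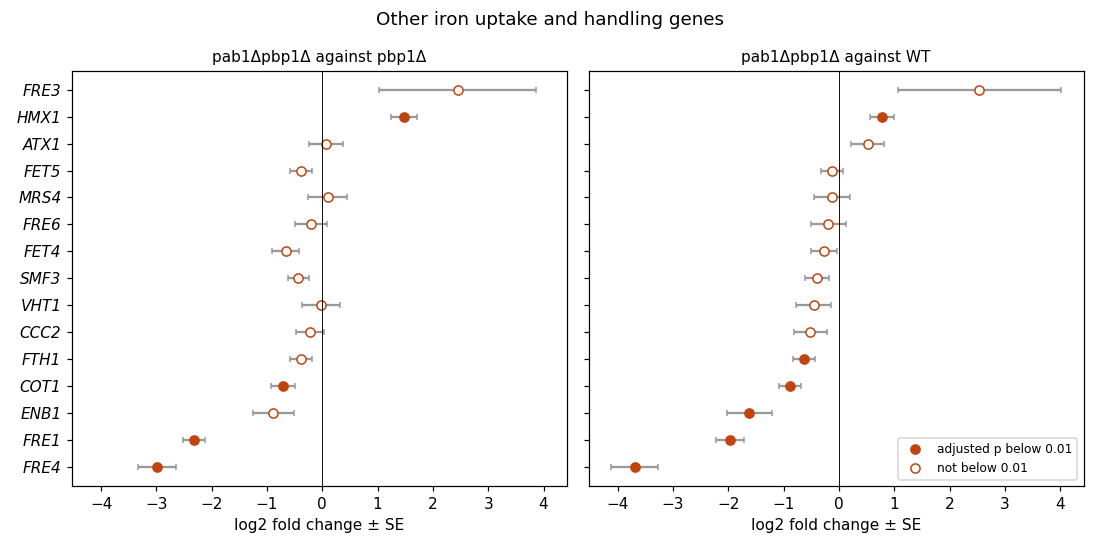
Fitted log2 fold changes (DESeq2) with bars for 1 SE of 15 other iron uptake and handling genes in pab1Δpbp1Δ against pbp1Δ cells and against WT cells, filled where the adjusted p is below 0.01. FRE4 lies at -2.99 and -3.70 and FRE1 at -2.31 and -1.97, and HMX1 is the filled point on the right of 0 in both panels.

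Of 8 genes of iron sensing and regulation, 1 rose in pab1Δpbp1Δ against pbp1Δ cells and 2 rose against WT cells, with list medians of -0.03 and -0.02. Of all tested entries, 11.1% and 15.7% rose in these comparisons, with medians of 0.03 and 0.05. GRX3, a glutaredoxin that carries an iron-sulfur cluster to Aft1, rose by 0.86 ± 0.16 and 0.82 ± 0.15 on the log2 scale (SE; DESeq2, adjusted p = 1.56e-06 and 6.54e-07). YAP5, the activator of genes for storage of iron in the vacuole, rose by 0.99 ± 0.33 against WT cells (adjusted p = 0.00972, and between 0.00358 and 0.0726 over 16 other settings), and lost its call without any 1 WT library or without pab1Δpbp1Δ replicate 1 or 3. The genes of Aft1 and Aft2 did not pass in either comparison.

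Proteins that require iron include the targets of Tis11, such as the succinate dehydrogenase subunit gene SDH4, whose mRNA Tis11 is known to bind. Of 23 genes of such proteins, 4 rose and 4 fell in pab1Δpbp1Δ against pbp1Δ cells, and 5 rose and 5 fell against WT cells, with list medians of -0.12 and 0.06. All tested entries had medians of 0.03 and 0.05. Against pbp1Δ cells, 11.1% of them rose and 10.2% fell, and against WT cells 15.7% rose and 15.3% fell. Subunits of succinate dehydrogenase differed in direction. SDH3 rose by 0.79 ± 0.16 and 0.72 ± 0.16 against pbp1Δ and WT cells (SE; DESeq2, adjusted p = 7.55e-06 and 4.56e-05), while SDH1 fell, with log2 fold changes of -0.80 and -1.11 (adjusted p = 0.00561 and 8.14e-06). The call of SDH1 against pbp1Δ cells was lost without pbp1Δ replicate 2 or 3, without pab1Δpbp1Δ replicate 1 and in edgeR. In all limma settings SDH1 lost its call in both comparisons. SDH2 fell against WT cells, with a log2 fold change of -0.65 ± 0.18 (adjusted p = 0.00193), and kept this call in 8 of 16 other settings. Against pbp1Δ cells SDH2 was at -0.15 ± 0.23 and did not pass (adjusted p = 0.676). SDH4 rose by 0.87 ± 0.25 and 0.74 ± 0.23 (adjusted p = 0.00242 and 0.00564), but lost its call without any 1 pbp1Δ library, any 1 WT library or pab1Δpbp1Δ replicate 2, and kept it in 8 of 16 other settings in each comparison.

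Among the other iron-requiring proteins, cytochrome c (CYC1) rose by 1.58 ± 0.25 against pbp1Δ cells and by 1.23 ± 0.20 against WT cells (SE; DESeq2, adjusted p = 3.74e-09 and 2.34e-08), and cytochrome c peroxidase (CCP1) rose by 0.79 and 1.01 (adjusted p = 0.000112 and 1.07e-07). CCP1 lost its call against pbp1Δ cells in limma without a minimum mean FPKM, and CYC1 lost both calls in limma on log2(FPKM + 0.1). Biotin synthase (BIO2) rose by 1.25 ± 0.32 against WT cells (adjusted p = 0.00051), a call that was lost without WT replicate 3 or pab1Δpbp1Δ replicate 2 and in limma. The fatty acid desaturase OLE1 fell, with log2 fold changes of -1.60 and -1.48 (adjusted p = 1.92e-23 and 3.95e-26), and ferrochelatase (HEM15), which inserts iron into heme, fell, with log2 fold changes of -1.37 and -1.41 (adjusted p = 3.29e-10 and 3.50e-16). OLE1 had 4000, 3450 and 3372 normalized counts in pab1Δpbp1Δ libraries, against 9572, 11870 and 10950 in pbp1Δ libraries and 10160, 9172 and 10720 in WT libraries, with no overlap. Rieske protein (RIP1) was called in pbp1Δ against WT cells, where it fell by 0.59 ± 0.11 (adjusted p = 3.13e-05), a call that was lost in edgeR, in limma and with all 9 libraries in one fit. RIP1 was also called in pab1Δpbp1Δ against WT cells, with a log2 fold change of -0.995 ± 0.175 (adjusted p = 1.38e-07). That call was kept in 15 of 16 other settings. In pab1Δpbp1Δ against pbp1Δ cells RIP1 was at -0.42 ± 0.19 and did not pass (adjusted p = 0.0791).

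Of 20 genes of iron-sulfur cluster assembly, 2 rose and 1 fell in pab1Δpbp1Δ against pbp1Δ cells, and 7 rose and 2 fell against WT cells, while the list median was 0.05 and -0.07. Of all tested entries, 11.1% rose and 10.2% fell against pbp1Δ cells, and 15.7% rose and 15.3% fell against WT cells. The medians over all tested entries were 0.03 and 0.05. ISU1, the scaffold on which clusters are built, had 844.2, 835.5 and 1941 normalized counts in pab1Δpbp1Δ libraries, against 440.4, 256.2 and 303.5 in pbp1Δ libraries and 346.7, 323.9 and 346.6 in WT libraries. It rose by 1.84 ± 0.33 against pbp1Δ cells and by 1.82 ± 0.29 against WT cells (SE; DESeq2, adjusted p = 5.17e-07 and 4.95e-09). ISU1 lost its call against pbp1Δ cells in limma without a minimum mean FPKM, and against WT cells in limma on log2(FPKM + 0.1). The cochaperone JAC1 rose by 1.25 and 1.09 (adjusted p = 3.99e-05 and 0.00014). ATM1, the mitochondrial exporter whose substrate is needed for iron sensing, fell, with log2 fold changes of -1.19 ± 0.18 and -1.09 ± 0.18 (adjusted p = 3.43e-09 and 3.81e-08). Against WT cells the second scaffold ISU2 rose by 1.20 (adjusted p = 8.72e-05) and the glutaredoxin GRX5 by 1.08 (adjusted p = 5.49e-07). The lists beyond the 10 iron genes, including those of zinc and copper, held 83 genes. Of 77 tested in pbp1Δ against WT cells, RIP1 was the one called, against 1.21% of all tested entries.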

How the data were processed

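Ribosome footprints were measured in 9 libraries. Per the methods and the submitters' processing notes, the authors trimmed reads with cutadapt 1.9, removed non-coding RNA reads and PCR duplicates (UMI-tools), aligned with Bowtie 1.0.0 to a yeast transcriptome (build R64) and quantified with RSEM 1.3.0. The authors deposited RSEM expected counts, estimates that split reads of ambiguous origin over the transcripts they fit, and FPKM values (scaled for transcript length and library size), per transcript (6952 entries) and per gene (6656 entries). Footprints outside coding regions are included, and mRNA abundance was not used here.

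Rounded expected counts of transcripts were compared pairwise over all entries with DESeq2 1.42.0 (R 4.3.3; 6 libraries, no covariate, independent filtering at 0.01, Benjamini-Hochberg adjusted p below 0.01), following the study. Groups and replicate numbers came from the labels. Levels used DESeq2 size factors over the 9 libraries. Totals ranged from 3149040 to 6903587 per library. Replicates of a strain differed by a chi-square per degree of freedom of 5.97 or more, so none was a duplicate. Genes were named through a RefSeq table of assembly R64, in which 5913 entries matched a symbol. The fits were tested on simulated data first, with the same dispersion for every entry and changes only in entries that averaged at least 50 counts. Their behaviour for entries as variable as TIS11, or below that level, was not tested.

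The 10 genes, the other lists and the tests were chosen with earlier results of these data known. All 10 genes are named, and of each other list called genes among the 5 largest changes in a comparison, beside the 10 entries most like TIS11. FTH1, SDH2, SDH3, CCP1 and genes that did not pass were named beyond this after their values were seen. Same-numbered pbp1Δ and WT libraries deviated together for numbers 1 and 3 (r = 0.59 and 0.43), which comes from the data, since the labels give the number alone. For number 2, r was 0.18, no higher than the 0.19 of pbp1Δ replicate 2 with WT replicate 3. Alternatives were a quasi-likelihood test in edgeR 4.0.16, TMM factors, a mean count of at least 10, no independent filtering, no Cook cutoff, the gene table, all 9 libraries in one fit, the replicate block, a threshold of 0.05, limma 3.58.1 on log2(FPKM + 1) or log2(FPKM + 0.1), and leaving out each library.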

Additional observations from a re-analysis of the deposited data

How the results depend on the processing

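FIT2 kept its direction in pab1Δpbp1Δ against WT cells under the 16 other settings and its call in 15 of them, the exception being limma on log2(FPKM + 0.1). TIS11 stayed lower in pab1Δpbp1Δ cells in all 16 in both comparisons. Counts of called genes among the 10 include TIS11 and are given as a description, with none for pab1Δpbp1Δ against pbp1Δ cells. In pab1Δpbp1Δ against WT cells, 2 were called in DESeq2. On log2(FPKM + 0.1), limma called 0 of 10 genes there, where 819 of all entries were called in place of 1818. Against pbp1Δ cells, limma called 305 entries on that scale, 609 on log2(FPKM + 1) and 694 on log2(FPKM + 1) with a mean FPKM of at least 1, in place of 1230. In pbp1Δ against WT cells, the 68 calls became 1 in edgeR, 33 with all 9 libraries in one fit, 121 at an adjusted p below 0.05, and 1, 6 and 1 in the 3 limma settings. Leaving out each library in turn gave 2 to 4 of 10 called genes in pab1Δpbp1Δ against WT cells (4 without pab1Δpbp1Δ replicate 3). Of all entries, it gave 756 to 1201 calls in pab1Δpbp1Δ against pbp1Δ cells and 18 to 90 in pbp1Δ against WT cells. Among genes of the other lists, GRX3, HEM15 and ZRT1 lost their calls against pbp1Δ cells in limma on log2(FPKM + 0.1). On that scale FRE1, COT1, SDH3 and RIP1 lost theirs in pab1Δpbp1Δ against WT cells. The causes were not tested.

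Signs changed only for fold changes that had not been called. With a library left out in turn, the log2 fold change in pab1Δpbp1Δ against pbp1Δ cells ran between -0.073 and 0.44 for CTH1, -0.12 and 0.76 for ARN1, -0.62 and 0.55 for SIT1, and -0.0043 and 1.75 for FIT1. In pab1Δpbp1Δ against WT cells it ran between -0.030 and 0.23 for CTH1, -0.99 and 0.090 for ARN1, -0.29 and 1.04 for SIT1, -0.27 and 1.40 for FIT1, and -0.43 and 0.63 for FIT3, which was -0.00014 in edgeR. In pbp1Δ against WT cells it ran between -1.55 and 0.70 for TIS11, -0.35 and 0.16 for CTH1, -0.24 and 0.38 for FET3, -0.91 and 0.26 for FIT1, and -0.026 and 0.87 for FIT3. CTH1 was there at 0.0011 in edgeR, 0.0044 with TMM factors, 0.0019 with a mean count of at least 10 and 0.0029 with all 9 libraries in one fit, and TIS11 was at -0.41 in each of the 3 limma settings.

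Replicate numbers are shared between strains. Same-numbered pab1Δpbp1Δ libraries did not deviate together with those of pbp1Δ or WT cells in every pair (r = 0.29, 0.39 and -0.13 with pbp1Δ, and 0.38, 0.12 and 0.02 with WT, for replicates 1, 2 and 3). With the number as a replicate block, the log2 fold change of FET3 was -2.18 against pbp1Δ cells and -2.05 against WT cells. FET3 was then called against WT cells, where 3 of 10 genes were called, counting TIS11. Against pbp1Δ cells, ARN2 was at 2.31 and SIT1 at -0.048 with the block, values given as a description. In pbp1Δ against WT cells the block gave 68 calls, none among the 10 genes, with TIS11 at -0.40.

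Of the 10 entries most like TIS11, between 2 and 7 stayed among the nearest 10 over all libraries when a library was left out (2 without pbp1Δ replicate 3), and between 3 and 6 within strains. By Spearman's correlation 3 and 5 stayed. With 3 libraries per strain, the levels of ARN1, ARN2, FIT1 and FIT3, below 50 normalized counts on average, limit what could be detected.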

Other observations

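Genes of zinc and copper uptake were read in the same fits. Of 9 genes of the zinc regulon, 4 (ZRT1, ZRT2, ZRT3 and IZH1) fell in pab1Δpbp1Δ against pbp1Δ cells and 0 rose, against 10.2% and 11.1% of all entries, and 2 (ZRT1 and ZRT3) fell and 1 rose against WT cells, against 15.3% and 15.7% of all entries, with list medians of -0.60 and -0.54 against 0.03 and 0.05 over all tested entries. ZRT1, the high-affinity zinc transporter, had 16.7, 6.62 and 16.9 normalized counts in pab1Δpbp1Δ libraries, against 70.6, 52.9 and 68.7 in pbp1Δ libraries and 75.8, 68.8 and 112.0 in WT libraries. ZRT1 fell by 2.35 ± 0.48 against pbp1Δ cells and by 2.76 ± 0.47 against WT cells (SE; DESeq2, adjusted p = 1.14e-05 and 4.00e-08). The other calls were smaller, with log2 fold changes of -0.84 for IZH1, -0.71 for ZRT2 and -0.60 for ZRT3 against pbp1Δ cells (adjusted p = 0.000466, 0.00236 and 0.0009) and -0.54 for ZRT3 against WT cells (adjusted p = 0.00345). Against pbp1Δ cells, these 3 calls were lost without pbp1Δ replicate 2, that of ZRT2 also without pbp1Δ replicate 1 or pab1Δpbp1Δ replicate 1 or 2, and that of ZRT3 also without pab1Δpbp1Δ replicate 2. The call of ZRT3 against WT cells was lost without WT replicate 1 or 3 or pab1Δpbp1Δ replicate 1 or 2. In all limma settings these calls of ZRT2, ZRT3 and IZH1 were lost, as were those of ZRT2 and ZRT3 in edgeR. ADH4 and ZPS1 did not pass, with log2 fold changes of 0.47 and 0.19 against pbp1Δ cells. The gene that rose against WT cells was IZH2, by 1.14 ± 0.24 (adjusted p = 2.28e-05).

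Of 5 tested copper uptake genes, 2 (CTR1 and FRE7) fell against pbp1Δ cells and CTR1 alone fell against WT cells. Of all tested entries, 10.2% and 15.3% fell in these comparisons. CTR1, the high-affinity copper transporter, had 890.3, 597.8 and 562.8 normalized counts in pab1Δpbp1Δ libraries, 2623, 2418 and 1902 in pbp1Δ libraries, and 2849, 3033 and 1061 in WT replicates 1, 2 and 3. CTR1 fell, with log2 fold changes of -1.77 ± 0.22 against pbp1Δ cells and -1.77 ± 0.50 against WT cells (SE; DESeq2, adjusted p = 6.59e-14 and 0.00154). Its call against WT cells was lost without pab1Δpbp1Δ replicate 2 or 3 and in all limma settings. FRE7, a copper-responsive reductase gene, had 220.4, 216.2 and 131.0 in pab1Δpbp1Δ libraries, 433.4, 444.8 and 430.2 in pbp1Δ libraries, and 337.9, 588.3 and 66.9 in WT replicates 1, 2 and 3. WT replicate 3, which was highest in TIS11, FET3 and FTR1, was thus lowest in CTR1 and FRE7, and all 4 copper genes with a mean of at least 50 normalized counts were lowest there. The log2 fold change of FRE7 was -1.205 ± 0.23 against pbp1Δ cells (adjusted p = 2.57e-06) and -0.81 ± 0.82 against WT cells (adjusted p = 0.459). Its call against pbp1Δ cells was lost with all 9 libraries in one fit and in limma without a minimum mean FPKM. The other tested genes were CTR2, CTR3 and MAC1, with log2 fold changes of -0.58, -1.27 and -0.01 against pbp1Δ cells that did not pass. A cause of the difference between WT libraries was not tested.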
